A study of Homo sapiens with 6 samples.

Results

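The genes described here are the 8 human genes named as cyclin-dependent kinase (CDK) inhibitors in the series: CDKN1A, CDKN1B, CDKN1C, CDKN2A, CDKN2B, CDKN2C, CDKN2D and CDKN3. They were chosen by symbol as the family of CDKN1A, which had been noticed for its lower counts after alpha satellite knockdown, and all 8 had a row among the 53719 rows of the count table. The difference between the groups is therefore given for these genes as a description: they were part of the fit over all genes, and whether they passed its threshold is stated without being read as a result. Counts were read in 6 libraries of total RNA from H9, an established human embryonic stem cell line grown in RSeT, a medium sold for the culture of naive-state cells. In the knockdown group (3 libraries, a to c) the cells had received an antisense gapmer, an oligonucleotide that directs cleavage of a matching RNA, aimed at ALR, the alpha satellite RNA of centromeres. The control group (3 libraries, a to c) had received a control gapmer, and RNA of both groups was collected 48 h after transfection. Every library came from this line, no label says whether the letters mark separate cultures, and p-values then measure only the spread between these libraries. Values per library are given below in the order a, b, c. Levels of ALR itself were not analysed here.

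CDK inhibitors hold back the kinases that drive the cell cycle. The Cip/Kip proteins p21 (CDKN1A), p27 (CDKN1B) and p57 (CDKN1C) bind cyclin-CDK complexes, above all those of CDK2, while the INK4 proteins p16 (CDKN2A), p15 (CDKN2B), p18 (CDKN2C) and p19 (CDKN2D) bind CDK4 and CDK6 and keep them from D-type cyclins. CDKN3 is of another kind: it is a phosphatase that removes the activating phosphate from CDK2, and its mRNA is made mostly in cycling cells. Pluripotent stem cells are known for a short G1 phase and low INK4 levels.

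For the start sites, RefSeq windows (GRCh38.p14) matched 7 of the 8 genes by symbol, CDKN1C being the one without an entry. The 250 bases before the start are shown for the 3 genes with the most counts, because CDKN1A differed between the groups and CDKN1B and CDKN3 overlapped. Capitals mark the GC box (GGGCGG), the CCAAT box (CCAAT) and the cell cycle homology region (TTTGAA), each searched on both strands, a match on the other strand being shown as its reverse complement. The windows lie on the plus strand at chr6:36678464-36678713, chr12:12717118-12717367 and chr14:54396757-54397006.
CDKN1A: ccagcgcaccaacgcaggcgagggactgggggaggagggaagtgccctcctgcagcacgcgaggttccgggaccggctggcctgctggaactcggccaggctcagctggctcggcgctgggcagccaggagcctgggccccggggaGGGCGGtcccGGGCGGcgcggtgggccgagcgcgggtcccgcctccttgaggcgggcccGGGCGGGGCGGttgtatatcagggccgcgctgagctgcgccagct
CDKN1B: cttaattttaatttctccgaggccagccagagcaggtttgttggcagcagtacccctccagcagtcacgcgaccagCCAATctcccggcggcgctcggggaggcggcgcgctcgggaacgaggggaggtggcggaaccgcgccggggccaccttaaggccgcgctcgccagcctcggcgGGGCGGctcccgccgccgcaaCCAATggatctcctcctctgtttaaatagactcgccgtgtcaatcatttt
CDKN3: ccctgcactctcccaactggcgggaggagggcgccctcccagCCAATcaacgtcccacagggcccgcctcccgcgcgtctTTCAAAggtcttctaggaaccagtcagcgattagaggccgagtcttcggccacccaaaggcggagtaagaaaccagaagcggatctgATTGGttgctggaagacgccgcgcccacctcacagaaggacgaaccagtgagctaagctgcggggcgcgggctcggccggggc
The CDKN1A window held 4 GC boxes, the last of them overlapping the one before by its first base, and 0 CCAAT boxes. The CDKN1B window held 1 GC box and 2 CCAAT boxes. The CDKN3 window held 0 GC boxes, 2 CCAAT boxes and 1 cell cycle homology region. Of all 35116 windows of this length, 42.6% held a GC box, 32.0% a CCAAT box and 13.3% the homology region. A TATA box (TATAAA) was in none of the 3 windows, against 10.7% of all. The letters describe these windows only, and no result below rests on them.

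The libraries held 25087629 to 36576752 counts. Knockdown library a stood apart, with counts in 29678 rows against 25898 to 26788 in the other 5. Mitochondrial rows took 2.45 to 2.63% of the counts in knockdown and 1.76 to 2.50% in control libraries, control library c being the lowest. Of 11 pluripotency genes, SOX2 was listed at 0 and the 10 tested were well expressed. NANOG (a core transcription factor) was at 194 ± 12.4 CPM after knockdown and 181 ± 5.21 in the controls (SD, n = 3). In the same order POU5F1 was higher after knockdown, at 133 ± 16.9 and 99.8 ± 13.3, and LIN28B lower, at 299 ± 11.5 and 335 ± 3.96. In the fit over all genes 0 of the 10 passed the threshold, and 4 had a log2 fold change below 0. With p below 0.05 unadjusted there were 3, of which 2 were higher and 1 was lower. CPM are counts relative to the library size, which was scaled by TMM (trimmed mean of M-values). Markers of the naive state were mixed. The highest levels among them were those of TFCP2L1, DPPA3 and KLF4. TFCP2L1 was at 28.7 ± 3.03 CPM after knockdown and 27.0 ± 2.77 in the controls (SD, n = 3). In the same order DPPA3 was at 20.3 ± 1.73 and 18.8 ± 0.733 and KLF4 at 17.3 ± 1.10 and 17.9 ± 1.30. KHDC1L was listed at 0, KLF17 was at 0.171 ± 0.163 and 0.0766 ± 0.0427 CPM, and DPPA5 at 1.12 ± 0.123 and 0.999 ± 0.210. The 9 primed-state markers with a row summed to 570.1 to 582 CPM in knockdown and 554 to 568 in control libraries, and the 10 naive markers to 73.3 to 81.5 and 73.3 to 79.0. In both lists 0 genes passed the threshold and 1 had p below 0.05 unadjusted. The naive one was DNMT3L, at 1.41 ± 0.0510 and 2.33 ± 0.700 CPM (edgeR adjusted p = 0.258). The primed one was SALL1, at 62.6 ± 4.01 and 49.5 ± 1.89 CPM (edgeR adjusted p = 0.0507).

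Of the 8 genes, 6 had counts, and CDKN2A and CDKN2B were listed at 0 in every library. Another, CDKN2C, had too few counts for the fit. The remaining 5, CDKN1A, CDKN1B, CDKN1C, CDKN2D and CDKN3, were among the 19721 genes fitted. All 5 had a log2 fold change below 0, with a median of -0.45 against 0.02 over all genes tested. That median includes CDKN1A, which chose the family. CDKN1B (-0.02 ± 0.08) and CDKN3 (-0.08 ± 0.09) lay within their SE of 0. CDKN1A was the 1 member called at an adjusted p of 0.05, and it was lower. Over all genes, 0.786% were called and 0.649% were called lower, but since this contrast chose the family the shares are given only beside the count.

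**Figure D1:**
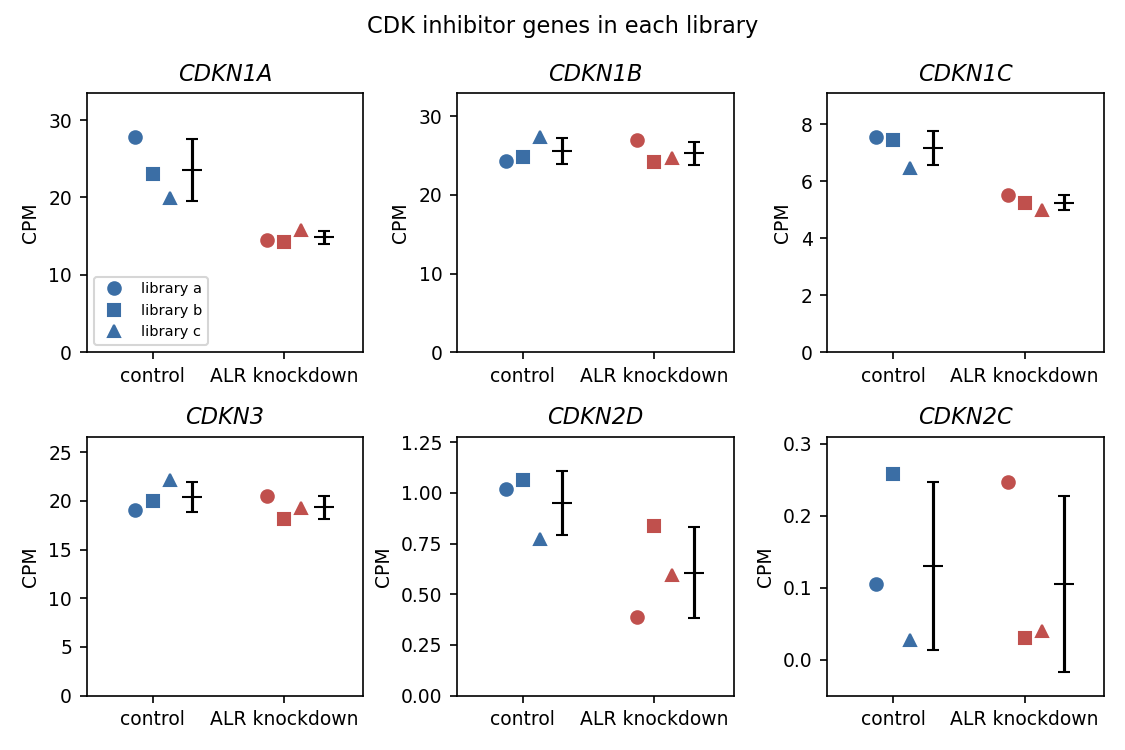
Expression in CPM (vertical axes, each from 0 except for CDKN2C, whose error bar passes below it) of the 6 CDK inhibitor genes with counts, in 3 control and 3 ALR knockdown libraries; symbols give the library letter and bars the mean ± SD. The control values of CDKN1A and CDKN1C all lie above their knockdown values, while those of CDKN1B and CDKN3 overlap.

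CDKN1A (ENSG00000124762.13, GENCODE 29, GRCh38 chr6:36676460-36687339, plus strand, protein-coding) encodes p21, which stops the cycle after DNA damage and also binds the replication clamp PCNA. It had counts of 410, 477 and 400 after knockdown and 792, 714 and 722 with the control gapmer. On the CPM scale this was 14.5, 14.3 and 15.8 after knockdown and 27.9, 23.0 and 19.9 in the controls. The highest knockdown library, c, lay below the lowest control library, c, so the groups did not overlap. The means were 14.9 ± 0.843 and 23.6 ± 4.03 CPM (SD, n = 3), 37.0% lower in knockdown, with a log2 fold change of -0.66 ± 0.12 (SE of the edgeR fit). The control libraries were spread more widely than the knockdown ones, with a coefficient of variation of 17.1% against 5.68%.

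Whether CDKN1A passed the threshold depended on single libraries, while its value moved by less than the pooled SD of its libraries. Its log2 fold change lay between -0.78 and -0.52 over 15 alternatives, which all reuse the libraries that chose the gene and so add no support. The adjusted threshold was missed without knockdown library a (-0.65), knockdown library b (-0.64), control library a (-0.52) or control library b (-0.69). In this bulk RNA, fewer cells expressing CDKN1A and less CDKN1A RNA per cell cannot be told apart.

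CDKN1C (ENSG00000129757.13, chr11:2883213-2885773, minus strand, protein-coding) encodes p57, an inhibitor expressed from the maternal allele of an imprinted cluster. It had 5.50, 5.24 and 4.99 CPM after knockdown and 7.56, 7.44 and 6.47 with the control gapmer. Here too every knockdown library was below every control library, with control library c the closest. The means were 5.24 ± 0.257 and 7.16 ± 0.600 CPM (SD, n = 3), 26.7% lower, and the log2 fold change was -0.45 ± 0.13 (SE). CDKN1C passed the threshold in 0 of 15 alternatives, and its fold change lay between -0.52 and -0.40 in them. CDKN1A and CDKN1C were the 2 of 5 tested members whose groups did not overlap with knockdown lower. Over all genes tested 9.37% were of that kind. Since CDKN1A was noticed for its lower counts in this contrast and chose the family, this share is given only beside the count.

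CDKN1B (ENSG00000111276.10, chr12:12715058-12722371, plus strand, protein-coding), which encodes p27, an inhibitor governed largely by protein turnover, differed between the groups by less than the spread of the libraries. It had 27.0, 24.2 and 24.7 CPM after knockdown and 24.3, 24.8 and 27.4 with the control gapmer. Knockdown library a and control library c were the high ones, and the groups overlapped. The means were 25.3 ± 1.50 and 25.5 ± 1.65 CPM (SD, n = 3), a log2 fold change of -0.02 ± 0.08 (SE). Its sign was not settled: 11 of 15 alternatives gave a value below 0, with a range of -0.07 to 0.04.

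CDKN3 (ENSG00000100526.19, chr14:54396849-54420218, plus strand, protein-coding), the phosphatase, had 20.6, 18.2 and 19.3 CPM after knockdown. With the control gapmer it had 19.1, 20.0 and 22.1. Control library c was the highest and the groups overlapped. The means of 19.3 ± 1.18 and 20.4 ± 1.57 CPM (SD, n = 3) gave a log2 fold change of -0.08 ± 0.09 (SE).

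Among the INK4 genes CDKN2D was the one with enough counts for a fit. CDKN2D (ENSG00000129355.6, chr19:10566462-10569059, minus strand, protein-coding), encoding p19, had 11, 28 and 15 counts after knockdown and 29, 33 and 28 with the control gapmer. In CPM these were 0.388, 0.839 and 0.594 against 1.02, 1.06 and 0.771. Knockdown library b lay above control library c, so the groups overlapped. The log2 fold change of -0.63 ± 0.39 (SE) was close to that of CDKN1A but with an error over 3 times as wide (0.386 against 0.117), and it moved between -0.96 without knockdown library b and -0.39 without knockdown library a.

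CDKN2C (ENSG00000123080.10, chr1:50960745-50974633, plus strand, protein-coding), encoding p18, had 7, 1 and 1 counts after knockdown and 3, 8 and 1 with the control gapmer. The mean level was 0.105 CPM after knockdown (exact 95% Poisson interval of the summed counts 0.0473 to 0.196) and 0.130 in the controls (0.0647 to 0.219). These intervals cover counting error only and overlap over most of their length. A difference in CDKN2C was not detectable at this depth.

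**Figure D2:**
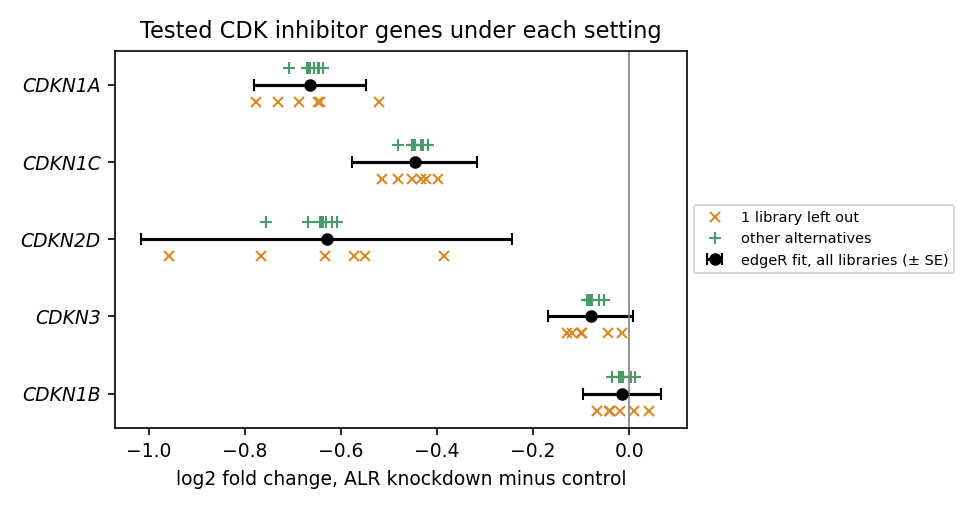
Log2 fold change (knockdown minus control, horizontal axis) of the 5 tested genes; black points are the edgeR fit of all libraries with its SE, crosses the fits without 1 library, and plus signs the other alternatives. CDKN1A and CDKN1C lie below 0 in every setting, CDKN2D does so with a wide spread, and CDKN1B and CDKN3 lie close to 0.

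The zeros of CDKN2A (ENSG00000147889.17, chr9:21967753-21995301) and CDKN2B (ENSG00000147883.10, chr9:22002903-22009363), both protein-coding on the minus strand, were read beside the annotation. CDKN2A makes p16 and, from another reading frame, p14ARF, and CDKN2B makes p15. In GENCODE 29 both spans lie wholly inside that of AL359922.1 and both overlap CDKN2B-AS1 (ANRIL), on the opposite strand, and neither shares an exon base with a gene that contains it. Protein-coding genes placed like this mostly had no counts: 509 of 595 (85.5%) were at 0 in all 6 libraries, against 711 of 16832 (4.22%) whose span lay in no other gene. Where a containing gene was on the same strand, 144 of 161 (89.4%) were at 0.

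Genes that such cells are known to use also had few or no counts. SOX2, a core pluripotency factor that sits inside SOX2-OT, had 0 counts in every library while SOX2-OT had 1363 to 2047. CDK2, which lies inside another gene but shares exon bases there, unlike CDKN2A and CDKN2B, also had 0 in every library. MTAP, a neighbour of CDKN2A that acts in methionine salvage, had 1 count in total, and the antisense RNA CDKN2B-AS1 had 7 to 35. The span of MTAP overlaps AL359922.1 but lies inside no other annotated gene. The zeros of CDKN2A and CDKN2B are thus listed values, and low expression and the way reads were assigned cannot be told apart. For the assigned reads alone, 0 counts allow up to 0.0345 CPM over the knockdown and 0.0313 over the control libraries (3 counts per group, counting error only). The other 6 members lay inside no other annotated gene. CDKN1A overlaps DINOL on the opposite strand and CDKN1B overlaps AC008115.3 on its own strand, so their counts could miss or share some reads there.

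**Figure D3:**
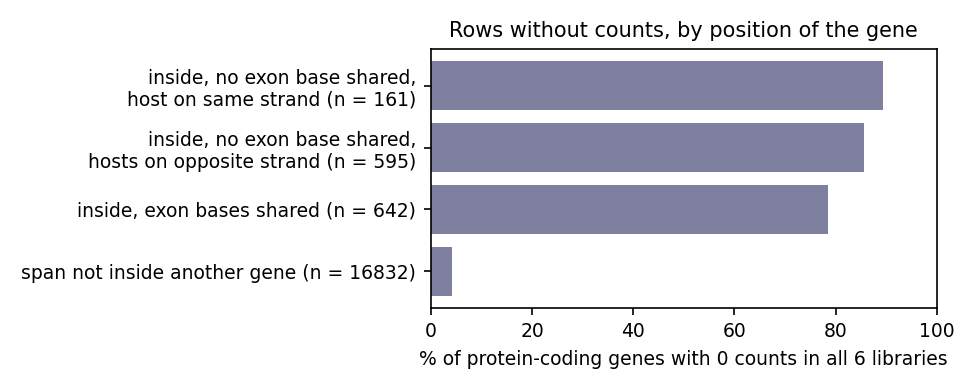
Share of protein-coding genes (percent, horizontal axis) with 0 counts in all 6 libraries, by whether the gene's span lies inside another gene in GENCODE 29; n is the number of genes. The share is 4.22% for genes inside no other gene and 78.5 to 89.4% for the 3 kinds of genes inside one, the kind of CDKN2A and CDKN2B standing at 85.5%.

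Levels of the members were compared per length, as CPM per kilobase of merged GENCODE 29 exons, in the control libraries. CDKN3 was highest at 11.1 ± 0.853, followed by CDKN1B at 9.08 ± 0.587 and CDKN1A at 7.73 ± 1.32 (SD, n = 3). CDKN1C was at 2.89 ± 0.242, CDKN2D at 0.633 ± 0.105 and CDKN2C at 0.0393 ± 0.0353. Neighbours in this order were separated in every library except CDKN1B (8.66 to 9.75) and CDKN1A (6.52 to 9.14), whose ranges overlapped. In the knockdown libraries the order was the same, but CDKN1A (4.69 to 5.19) lay clear of CDKN1B (8.60 to 9.61). The order depended on the length used: per kilobase of gene span CDKN1B came first (3.49 ± 0.226), then CDKN1C (2.79 ± 0.234), CDKN1A (2.17 ± 0.370) and CDKN3 (0.873 ± 0.0670).

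Ratios of 2 genes within a library need no scaling between libraries. For each CDKN1B count there were 0.535, 0.591 and 0.641 CDKN1A counts after knockdown and 1.14, 0.926 and 0.725 with the control gapmer. The groups did not overlap, and control library a was the only one with more CDKN1A than CDKN1B counts. As CDKN1B differed little between the groups, this ratio repeats the CDKN1A difference that chose the family and adds no support. CDKN1C to CDKN1B was 0.204, 0.217 and 0.202 after knockdown against 0.311, 0.300 and 0.236 with the control gapmer, again without overlap. CDKN1A to CDKN1C, by contrast, overlapped, at 2.84 ± 0.291 after knockdown and 3.28 ± 0.348 in the controls (SD, n = 3). CDKN3 to CDKN1B, at 0.765 ± 0.0145 and 0.799 ± 0.0137 in the same order, differed little in size but did not overlap. Per kilobase of merged exons, CDKN1A made up 30.5 ± 1.93% of the summed Cip/Kip level after knockdown and 39.1 ± 4.65% in the controls (SD, n = 3). In the same order CDKN1B made up 56.3 ± 1.56% and 46.3 ± 5.09%, and CDKN1C 13.2 ± 0.591% and 14.7 ± 0.834%. These shares are parts of one sum, so the CDKN1B share is higher where the others are lower, although its own CPM overlapped between the groups.

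**Figure D4:**
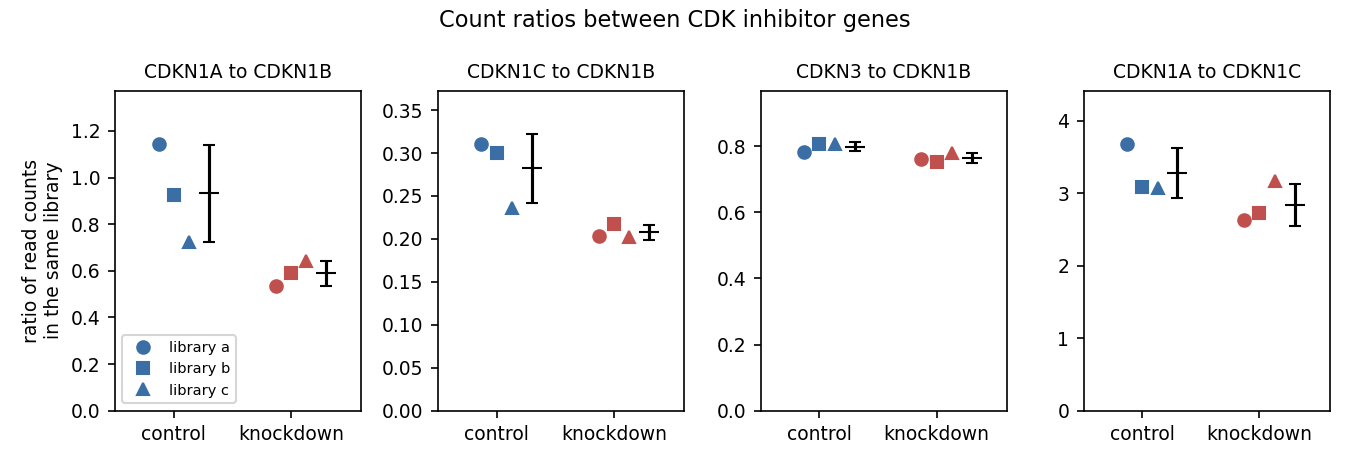
Ratio of the read counts of 2 CDK inhibitor genes in the same library (vertical axes, from 0), in 3 control and 3 knockdown libraries; symbols give the library letter and bars the mean ± SD. CDKN1A and CDKN1C are both lower against CDKN1B in all knockdown libraries, while the ratio of CDKN1A to CDKN1C overlaps between the groups.

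The genes whose pattern over the 6 libraries was most like that of CDKN1A were found by the root mean square difference of log2 CPM, each centred on its own mean, over 15139 other genes with a mean count of at least 50. The nearest was FRY (0.0936), followed by LYPD1 (0.0996), the clone-named RP11-115D19.1 (0.103), RP4-555D20.2 (0.103) and the corepressor TLE4 (0.104), where the median over all these genes was 0.379. TLE4, as an example, had 64.4, 61.8 and 68.5 CPM after knockdown and 105, 94.1 and 94.4 with the control gapmer. Among the members CDKN1C was nearest, at 0.159 and place 62, whereas CDKN3 (0.358) and CDKN1B (0.379) were near the median of all genes. All values share the same 6 libraries, and the group difference of CDKN1A is part of the pattern.

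Genes that act with CDK inhibitors were taken from 10 lists of 139 genes, 132 of them tested, in the same edgeR quasi-likelihood fit. Of these, 5 passed the adjusted threshold and were lower and 1 was higher. Their median log2 fold change was -0.003, against 0.02 over all genes. The lists were written with earlier results of these data known, so the 4.55% called, beside 0.786% of all genes tested (0.649% lower), is not independent evidence. Of the 10 lists, 8 are described below, and they hold 3 of the calls.

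Among the kinases and cyclins that the inhibitors bind, no gene with counts was called, and CDK2, a main target of the Cip/Kip proteins, was listed at 0 and could not be tested. Of the 5 D-type cyclin and CDK4/6 genes, 0 passed, and 1 had p below 0.05 unadjusted: CCND1, which encodes cyclin D1, with 129 ± 9.13 CPM after knockdown and 108 ± 2.66 in the controls (log2 fold change 0.26 ± 0.07, SE; edgeR adjusted p = 0.112). CCND2 had 298 ± 19.4 and 276 ± 16.3 CPM (edgeR adjusted p = 0.539). Of the 7 tested genes for CDK1 and cyclins A, B and E, 0 passed and 0 had p below 0.05 unadjusted, CCNE1 (29.9 ± 3.25 and 28.0 ± 1.16 CPM; edgeR adjusted p = 0.654) and CCNB1 (182 ± 15.5 and 171 ± 9.86 CPM; edgeR adjusted p = 0.611) having the smallest. Of the 8 kinases and phosphatases that act on CDKs, 0 passed, and 2 had p below 0.05 unadjusted. These were MNAT1, an assembly factor of the CDK-activating kinase (log2 fold change -0.32 ± 0.11, SE; edgeR adjusted p = 0.237), and WEE1, an inhibitory kinase (-0.15 ± 0.07; edgeR adjusted p = 0.325).

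Downstream of the CDKs, 2 of 17 tested genes of the RB family, E2F and DREAM list passed the threshold and were lower. None passed and was higher. The median log2 fold change of the 17 was -0.03, with 10 of them below 0. With p below 0.05 unadjusted there were 5, of which 4 were lower and 1 was higher. E2F3, a transcription factor released by RB, went from 246 ± 5.18 to 167 ± 17.9 CPM (control to knockdown, SD, n = 3; log2 fold change -0.56 ± 0.08, SE; edgeR adjusted p = 0.00583). LIN52, a DREAM subunit, went from 65.4 ± 3.99 to 49.1 ± 5.27 CPM (-0.42 ± 0.08; edgeR adjusted p = 0.0427). E2F3 passed in 12 of 15 alternatives and was lost without control library a, b or c. LIN52 passed in 7 of 15, was lost with library size alone, upper-quartile scaling or thinning, and among the fits without a library passed only without knockdown library c. Both overlap other transcripts in the annotation.

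Of 17 tested genes that act in CDK inhibitor turnover, 0 passed, and 1 had p below 0.05 unadjusted, with CDC20 at 115 ± 7.80 and 99.2 ± 6.22 CPM (edgeR adjusted p = 0.227) and UBAC1 at 46.4 ± 2.06 and 43.2 ± 1.23 (edgeR adjusted p = 0.515). Of 22 other transcription regulators, 1 passed, and 7 had p below 0.05 unadjusted, 4 of them higher and 3 lower. The 1 that passed was FOXO4, a FOXO factor of the class that acts on CDKN1B. It rose from 53.2 ± 3.71 to 69.4 ± 4.32 CPM (log2 fold change 0.38 ± 0.07, SE; edgeR adjusted p = 0.0370). FOXO3 (-0.26 ± 0.06, edgeR adjusted p = 0.0783) and FOXO1 (-0.16 ± 0.09, edgeR adjusted p = 0.449) went the other way without passing. FOXO4 passed in 10 of 15 alternatives and, among the fits without a library, only without knockdown library c. Of 21 Polycomb and DNA methylation genes, 0 passed and 4 had an unadjusted value of p below 0.05, KDM6A (248 ± 38.9 and 297 ± 18.5 CPM; edgeR adjusted p = 0.266) and DNMT3A (234 ± 11.4 and 206 ± 16.8 CPM; edgeR adjusted p = 0.281) having the smallest. A last list held RNAs and genes named for the inhibitor loci, and of its 3 tested genes 0 passed and 0 had p below 0.05 unadjusted. The only tested gene at a member's locus was CDKN2B-AS1, which had 0.593 ± 0.555 and 0.374 ± 0.110 CPM (edgeR adjusted p = 0.665). CDKN2AIP, which lies on chromosome 4 and encodes a partner of p14ARF, had 23.4 ± 2.40 and 21.6 ± 0.878 CPM (edgeR adjusted p = 0.601). In the 6 lists without an edgeR call, limma-voom called 0 genes and DESeq2 called 1, in the list of D-type cyclins and CDK4/6. Without the low-count filter edgeR called 1 gene each in the lists of D-type cyclins, of kinases and phosphatases acting on CDKs and of Polycomb and DNA methylation. Without knockdown library c it called 1, 1 and 2 in the same lists.

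**Figure D5:**
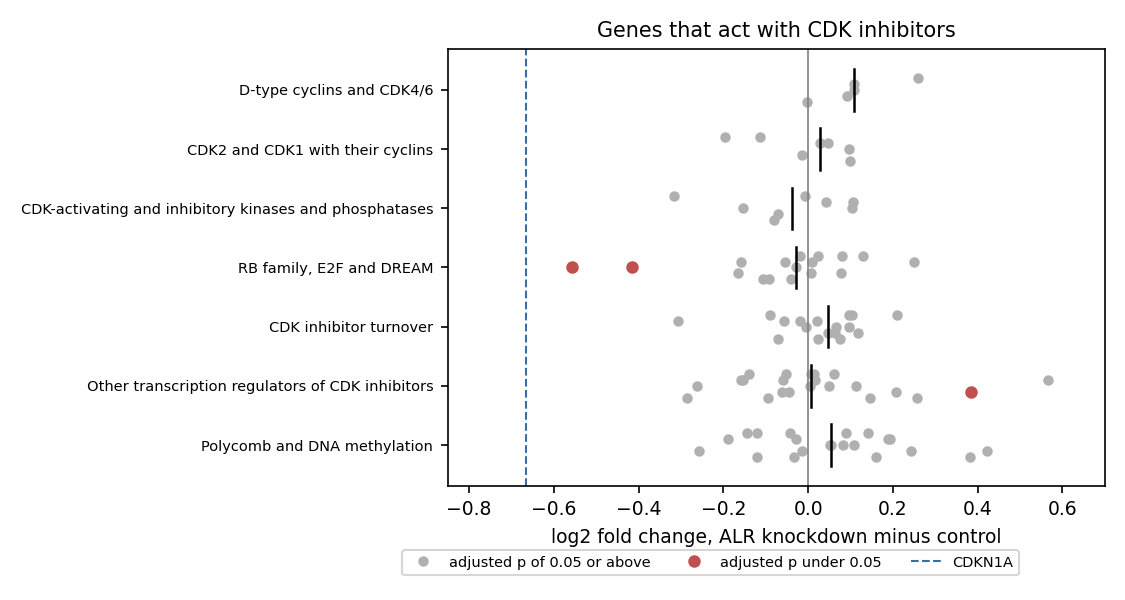
Log2 fold change (knockdown minus control, horizontal axis) of each tested gene in 7 of the 10 lists; red points passed an adjusted p of 0.05, black bars are list medians and the dashed line marks CDKN1A at -0.66. The 7 list medians lie between -0.04 and 0.11, and the red points are E2F3 (-0.56), LIN52 (-0.42) and FOXO4 (0.38).

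Markers of other cell types were given by their summed levels. In knockdown and control libraries the 8 neuroectoderm markers summed to 399 to 451 and 348 to 399 CPM, mostly NES, with NEUROD1 at 0. The 8 fibroblast markers summed to 89.7 to 98.9 and 92.8 to 107 CPM, mostly COL1A2 and COL1A1. Among them COL3A1, DCN, LUM and S100A4 had means of 0.0132 to 0.427 CPM after knockdown and 0.0107 to 0.317 in the controls. The 8 mesoderm markers summed to 23.1 to 25.3 and 21.3 to 23.4 CPM, mostly MIXL1, KDR and PDGFRA. The 8 endoderm markers summed to 8.63 to 10.5 and 7.07 to 8.30 CPM, mostly CXCR4. The 11 trophectoderm and amnion markers summed to 3.28 to 4.34 and 2.95 to 3.67 CPM, with CGB5 at 0. In each of these lists 0 genes passed the adjusted threshold in the edgeR fit. With p below 0.05 unadjusted there were 2 neuroectoderm, 2 fibroblast, 1 mesoderm, 0 endoderm and 0 trophectoderm and amnion genes. The part of cell composition in the CDKN1A and CDKN1C values was not tested.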

How the data were processed

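Total RNA of 6 libraries was measured by RNA sequencing with a directional kit, per the labels' protocols. The authors deposited raw read counts per gene symbol. The submitters' processing notes name Trimmomatic 0.39, STAR 2.7.8a, featureCounts, Subread 2.14.2 and hg38, without roles; annotation, strand setting and treatment of overlapping genes are not given in the sources used here. Groups came from the genotype label. The members and lists were chosen with earlier results of these data known.

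Genes kept by filterByExpr were scaled by TMM and tested with edgeR 4.0.16 (R 4.3.3; glmQLFit, glmQLFTest, group as the only term), with Benjamini-Hochberg adjustment over all 19721 genes and a threshold of 0.05. Errors are SD over 3 libraries unless SE is given. Alternatives were other scalings, DESeq2 1.42.0, limma-voom (limma 3.58.1), other filters, thinning, a replicate block and each library left out. The main edgeR fit was also run on simulated counts with known changes, and the outcome is not given here. Named genes were all members, per list the 3 smallest p among calls or otherwise the 2 smallest p, and the 5 genes most like CDKN1A. FOXO1 and FOXO3 were added beside FOXO4. GENCODE 29 (GRCh38) gave identifiers, positions and lengths; one list gene, PANDAR, and one marker, CD24, matched no row. Replicate letters were not used to pair the libraries in the main fit, and whether they mark pairs was not settled. Results that need 1 withheld item, 2 of the 10 lists among them, are not reported here.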

Additional observations from a re-analysis of the deposited data

How the results depend on the processing

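Over all genes, 155 were called; DESeq2's Wald test called 536, no low-count filter 1064 and the fits without 1 library 26 to 1309. Of the members 1 was called, CDKN1A, in each setting with all 6 libraries, and the fits without 1 library called 0 to 1. Genes of the partner lists numbered 6 called, against 14 with DESeq2's Wald test, 20 without the low-count filter and 0 to 19 without 1 library. The highest counts came without knockdown library c, and the cause was not tested. With the replicate block, 393 genes, 1 member and 9 partner genes were called; letters a, b and c correlated at 1.23e-05, 0.116 and -0.0251 in their deviations from the group means, and not every library was most like its own letter. No member's fold change moved by more than the pooled SD of its libraries in any alternative run, although the sign of CDKN1B changed with library size alone (0.01), upper-quartile scaling (0.003) and without knockdown library b (0.01) or control library c (0.04). CDKN2D was filtered out at a mean count of at least 50. Counts of 1 to 33 limit CDKN2C and CDKN2D.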
